A study of Homo sapiens with 10 samples.

Results

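The heat shock and chaperonin genes described here are 37 of the 22003 features in the count table. They were found by gene symbol, from a list of HSP70, HSP90, HSP40 and small heat shock genes, their co-chaperones, the heat shock factors and the CCT chaperonin, written with earlier results of these data known, and all 37 symbols were found. Of these, 36 had enough counts to be tested, and CRYAB, encoding alpha-B-crystallin, did not. The list is mainly cytosolic, but HSPA9, HSPD1 and HSPE1 encode chaperones of the mitochondrial matrix, and the CCT subunit gene CCT6A is not on it. RNA was sequenced from HaCaT cells, an immortalised human keratinocyte line with the genotype given as wild type, after 24 h with vehicle or with LBP, a polysaccharide-glycoprotein of Lycium barbarum. The 4 groups were vehicle cells (n = 2), LBP cells (n = 2), vehicle cells that then received 12 Gy of radiation (irradiated vehicle, n = 3) and LBP cells that then received 12 Gy (irradiated LBP, n = 3). RNA was taken 3 h after the dose, so all differences are those of 1 early time point in 1 cell line. The labels number repeats of the experiment but are silent on whether each had its own culture, and p-values here speak to the scatter among these libraries, part or all of which could be technical.

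Heat shock proteins bind unfolded stretches of other proteins, and many of them pass these through cycles of ATP binding and release. HSP70 proteins work with HSP40 (DNAJ) partners that load them and with exchange factors that empty them. HSP90 finishes the folding of kinases and receptors with the help of co-chaperones, and the ring-shaped CCT chaperonin folds actin and tubulin. When unfolded protein builds up, the transcription factor HSF1 binds heat shock elements, inverted repeats of the letters GAA and TTC, and raises the transcription of many of these genes. HSPB1 is known as an abundant protein of keratinocytes in unstressed skin.

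Because many members are known for regulation through heat shock elements, their promoters were searched for such repeats. The RefSeq promoter table (GRCh38.p14, 250 bases before to 50 after each transcript start) had entries for 33 of the 37 members, with 48 windows. HSPA14, FKBP4, CRYAB and HSF1 had none. Repeats of 2 units were written as GAANNTTC or TTCNNGAA and repeats of 3 units as GAANNTTCNNGAA or TTCNNGAANNTTC, which covers both strands, and every match of 3 units also contains matches of 2. A match of 2 units was present in 20 of the 48 member windows (41.7%) and in 13.5% of all 35116 promoter windows. A match of 3 units was present in 7 of the 48 (14.6%) and in 0.49% of all windows. The windows with 3 units belonged to HSPA8, HSP90AA1, HSP90AB1, CHORDC1, DNAJA1, DNAJB6 and HSPD1. Printed below are stretches upstream of a start for some of the members, called or not, with any matched letters in capitals. The DNAJA1 match of 3 units, at bases 4 to 16 after its start, is not printed. Positions are on GRCh38.p14 and sequences run 5′ to 3′ on the gene's strand.
CHORDC1, chr11:90223083-90223112, minus strand: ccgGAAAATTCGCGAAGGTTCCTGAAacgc
HSPD1, chr2:197500061-197500090, minus strand: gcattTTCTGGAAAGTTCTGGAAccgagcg
HSPA8, chr11:123062170-123062199, minus strand: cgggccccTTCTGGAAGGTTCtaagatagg
HSP90AB1, chr6:44247743-44247863, plus strand: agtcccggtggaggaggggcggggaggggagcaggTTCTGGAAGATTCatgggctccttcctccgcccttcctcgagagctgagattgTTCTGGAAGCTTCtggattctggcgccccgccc
HSP90AA1, chr14:102087105-102087134, minus strand: tcTTCCGGAAGGTTCgggaggcTTCTGGAA
DNAJB6, chr7:157336864-157336893, plus strand: aagagccgaGAACCTTCGCGAAggtggggc
CCT2, chr12:69585789-69585818, plus strand: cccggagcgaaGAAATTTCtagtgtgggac
HSPA1A, chr6:31815428-31815457, plus strand: aaaaccctgGAATATTCccgacctggcagc
HSPA1B, chr6:31827623-31827652, plus strand: gaaacccctgGAATATTCccgacctggcag
CDC37, chr19:10403543-10403672, minus strand: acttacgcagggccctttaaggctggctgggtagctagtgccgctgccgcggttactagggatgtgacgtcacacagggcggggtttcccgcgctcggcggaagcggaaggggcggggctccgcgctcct
CHORDC1 had 3 overlapping matches of 3 units between bases -60 and -38 from its start. HSP90AB1 had 2 separate matches of 3 units in its printed stretch, and HSPA8 had another of 3 units further upstream, from base -230. HSPA1A and HSPA1B each have 1 match of 2 units with the same letters, at bases -106 and -105 from their starts. CDC37 had no match in its window and is shown because its transcript changed. HSPE1 had no match in its window either. It is transcribed head to head with HSPD1, and the RefSeq starts lie 105 bases apart. The HSPD1 match printed above belongs to a window for a start further inside the HSPD1 gene, and its nearest base lies 294 bases upstream of the HSPE1 start. A match is a string of letters and not a measured binding site.

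**Figure D1:**
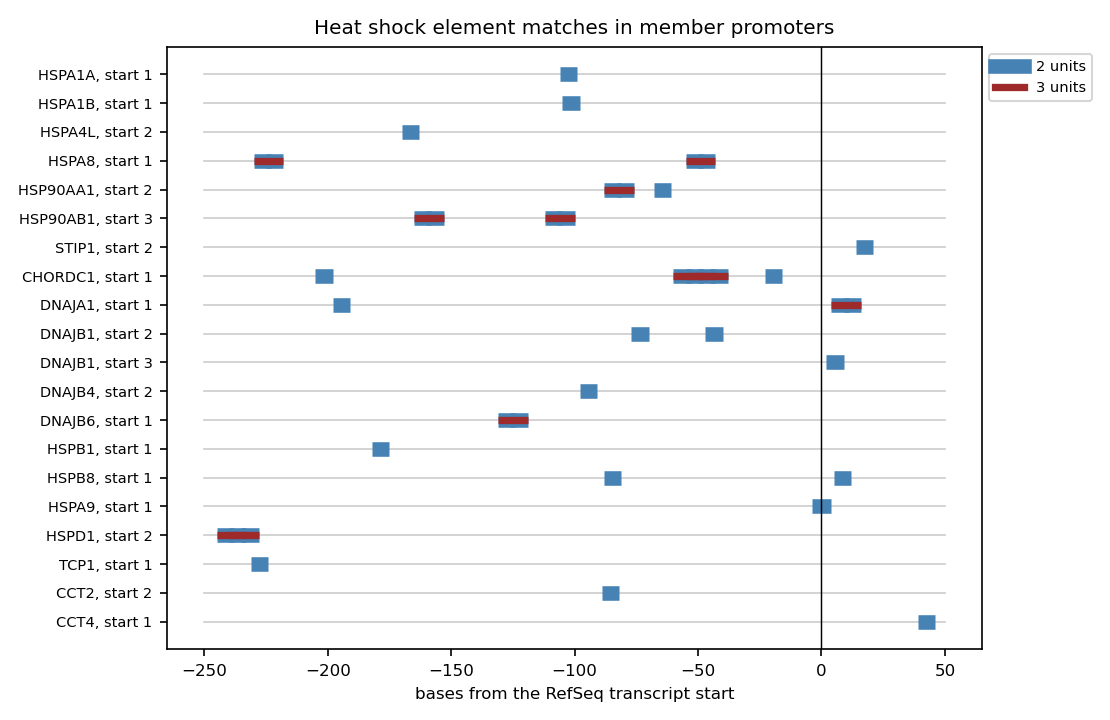
Positions of heat shock element matches in the RefSeq promoter windows of members that had any. The x axis is the distance in bases from the transcript start (0 on the axis), each grey line is 1 window, blue bars are matches of 2 units and red bars are matches of 3 units. Red bars are present in 7 windows, with 3 overlapping matches in CHORDC1 between bases -60 and -38.

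Per length of transcript, the genes differed widely in level. In the authors' FPKM values (fragment counts scaled by transcript length and library size), HSPA8, the constitutive cytosolic HSP70, had the highest level in vehicle cells, at 1628 ± 58.3 FPKM (SD, n = 2). HSP90AB1, the constitutive HSP90, followed at 1129 ± 58.1 and HSP90AA1, its stress-responsive relative, at 708 ± 22.0 FPKM. HSPD1 (HSP60) stood at 397 ± 10.9, HSPB1 (HSP27) at 392 ± 43.5 and HSPE1 (HSP10) at 282 ± 1.25 FPKM. The levels of HSPD1 and HSPB1 were within their spread of each other. HSPA1A, the stress-inducible HSP70, had 169 ± 3.01 FPKM in vehicle cells, so its transcript was abundant without radiation or LBP. At the low end, HSPA4L had 1.46 ± 0.000488, DNAJB4 3.52 ± 0.296, HSPB8 3.59 ± 0.177 and HSF2 4.61 ± 0.859 FPKM. The CCT subunits act together in 1 ring, yet CCT3, the highest in vehicle cells at 246 ± 1.87 FPKM, had nearly 2 times the level of CCT8, the lowest at 129 ± 11.6. CRYAB had between 0 and 11 counts per library.

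The members held 2.02 ± 0.0103% (SD, n = 2) of all counts in vehicle libraries, 1.89 ± 0.135% with LBP, 1.86 ± 0.0439% after irradiation of vehicle cells and 1.64 ± 0.129% after irradiation of LBP cells. No test was made of these shares. The HSP70 and HSP110 genes held 0.578 ± 0.00521% in vehicle cells and 0.418 ± 0.0701% in irradiated LBP cells. Within the LBP group, replicate 1 was the lower library for 31 of 36 members, with a median log2 difference of -0.13 from replicate 2. Within the irradiated LBP group, replicate 3 was lowest for 21 and replicate 2 highest for 22 members. Over all tested features, the same library differences had medians within 0.01 of 0. Scaling to a common library size holds such medians near 0 in any library. Whether these libraries stand apart more in the chaperone genes than in other genes was not tested. Values without them are given below where they move a result. In bulk samples fewer cells of a kind and less RNA per cell cannot be told apart.

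**Figure D2:**
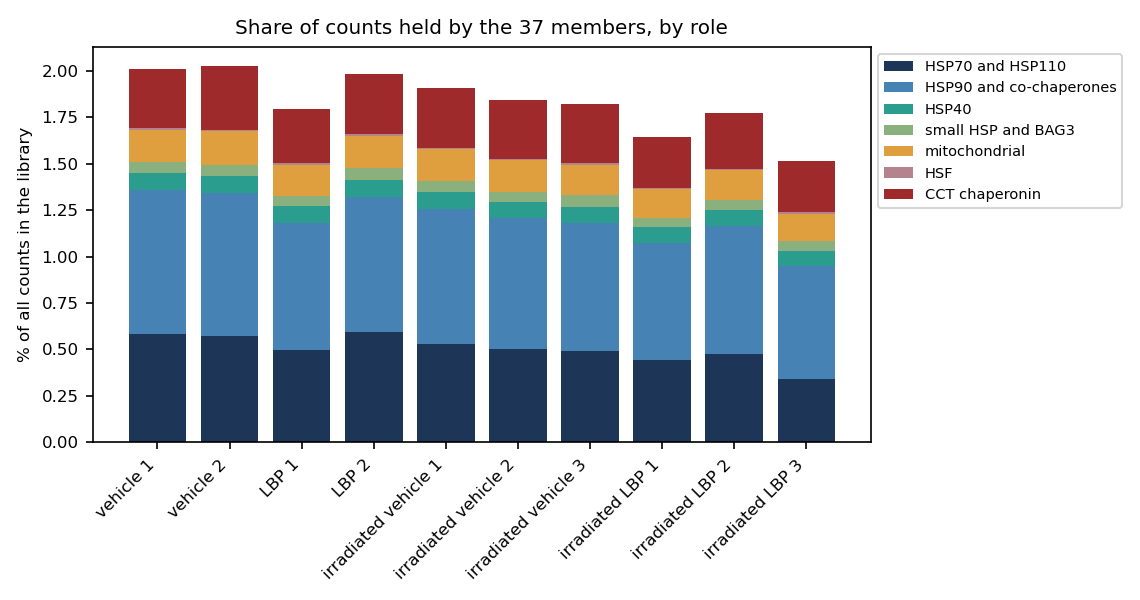
Share of all counts of each library held by the 37 members, stacked by role, in percent. Each bar is 1 library. The vehicle libraries hold 2.01% and 2.03%, and irradiated LBP replicate 3 holds the smallest share, 1.51%.

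What LBP pretreatment did to chaperone genes in irradiated keratinocytes was read from irradiated LBP against irradiated vehicle libraries (n = 3 against 3). Of the 36 members tested, 4 fell and none rose: CHORDC1, HSPE1, CCT2 and CDC37. This is 11.1% of the members, beside 4.36% of all 14799 features called in either direction and 1.57% called lower. The median log2 fold change of the members was -0.17, beside a median of 0.0051 for all features. Of the members 32 of 36 lay below 0, beside 48.9% of all features. The members' median was -0.12 without irradiated LBP replicate 3 and -0.20 without irradiated LBP replicate 2. Levels are counts scaled to a common library size with TMM factors (CPM), log2 fold changes carry their standard error (SE), and calls are at an adjusted p under 0.05 in edgeR's quasi-likelihood test. DESeq2 called 6 members, all lower (8.3% of all features called): the same 4, HSPA8 and DNAJB6. An unadjusted p under 0.05 was reached by 18 members (21.7% of all features), and 18 had all 3 irradiated LBP libraries below all 3 irradiated vehicle libraries (13.6% of all features). A mean of at least 100 CPM, a range chosen after the levels of the members were seen, was reached by 2176 features. Their median was -0.03, with 57.3% below 0 and 2.11% called lower. Of the members, 30 lie in that range.

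**Figure D3:**
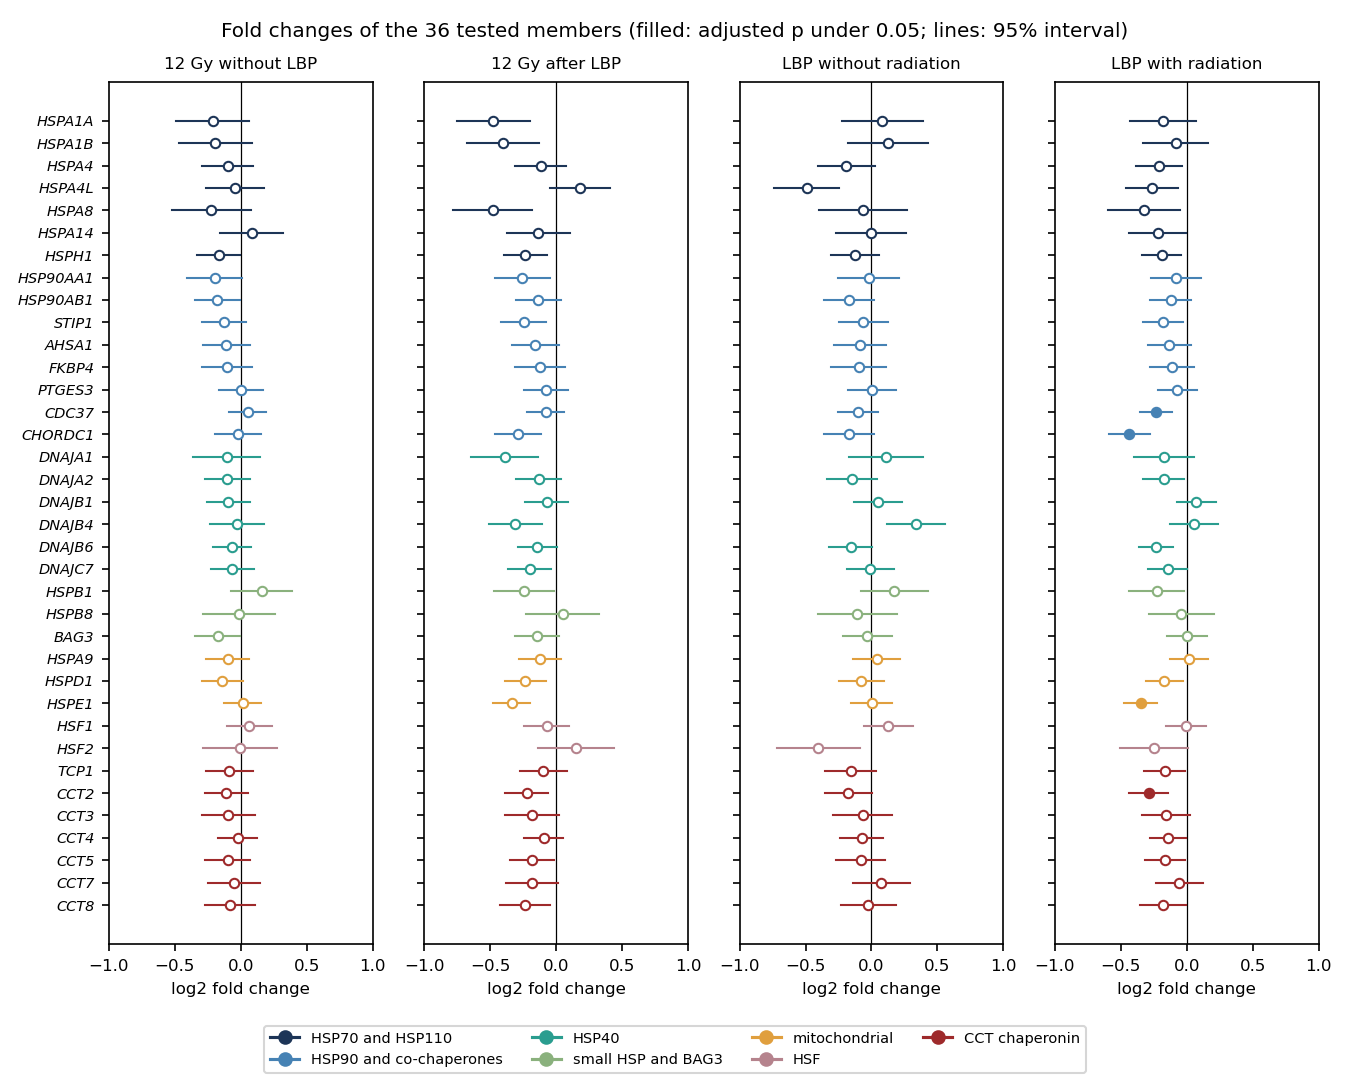
Log2 fold changes of the 36 tested members in the 4 comparisons between groups, coloured by role. Circles are the fitted values, lines their 95% intervals, and filled circles have an adjusted p under 0.05. Filled circles are present only for LBP with radiation, for CDC37, CHORDC1, HSPE1 and CCT2.

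Among the HSP90 co-chaperones, CHORDC1 and CDC37 fell with LBP in irradiated cells. CHORDC1, a partner of HSP90 with zinc-binding CHORD domains, had 117 and 135 CPM in the vehicle libraries, 109.8 and 114 with LBP, 120.3, 131 and 121 after irradiation of vehicle cells and 95.9, 92.8 and 86.4 after irradiation of LBP cells. All 3 irradiated LBP libraries lay below every other library of the study, and the difference between the irradiated groups was -0.44 ± 0.07 (95% interval -0.59 to -0.28, adjusted p = 0.007), a ratio of 0.738. The call held under all 14 alternative settings, with adjusted p from 4.9e-06 to 0.044. That every irradiated LBP library lay below every other library was also true of members not called. Among them were HSPA8, HSPH1, HSPD1, STIP1, DNAJB6, DNAJC7, AHSA1 and CCT5, and the share of all features with this order was not counted. CDC37, which loads protein kinases onto HSP90, had 221 and 220.4 CPM in the vehicle libraries, 198 and 213 with LBP, 233, 226 and 227 after irradiation of vehicle cells and 187, 194 and 202 after irradiation of LBP cells. The irradiated groups did not overlap, although irradiated LBP replicate 3 lay above LBP replicate 1, and the difference was -0.23 ± 0.06 (95% interval -0.36 to -0.11, adjusted p = 0.043). Its call was lost under 9 of the 14 settings. Without irradiated vehicle replicate 1, 2 or 3 the adjusted p was 0.15, 0.12 and 0.1, and without irradiated LBP replicate 1 or 2 it was 0.11 and 0.074, with values from -0.24 to -0.21. CHORDC1 lies at chr11:90201160-90223364 on the minus strand and CDC37 at chr19:10391134-10420121 on the minus strand (GENCODE v29, GRCh38), both protein coding.

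The HSP90 genes themselves did not pass. HSP90AB1 had 3396 and 3163 CPM in the vehicle libraries, 2781 and 3056 with LBP, 2949, 2748 and 2993 after irradiation of vehicle cells and 2593, 2819.9 and 2567 after irradiation of LBP cells. The irradiated groups overlapped, with a difference of -0.12 ± 0.07 (adjusted p = 0.33). HSP90AA1 had 2544 and 2664 CPM in the vehicle libraries, 2458 and 2677 with LBP, 2384, 2411 and 2018 after irradiation of vehicle cells and 2197, 2304 and 1949 after irradiation of LBP cells, and its difference was -0.08 ± 0.09 (adjusted p = 0.64). STIP1, the adaptor that holds HSP70 and HSP90 together, had 517 and 523 CPM in the vehicle libraries, 469 and 527 with LBP, 469, 455 and 505 after irradiation of vehicle cells and 401, 446 and 413 after irradiation of LBP cells, with every irradiated LBP library below every irradiated vehicle library and a difference of -0.18 ± 0.07 (adjusted p = 0.15). The other co-chaperones were AHSA1, which activates the HSP90 ATPase, the immunophilin FKBP4 and PTGES3 (p23), which holds the closed form of HSP90. They had values from -0.13 to -0.07.

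Of the mitochondrial chaperonin pair, HSPE1 fell. HSPE1, the lid of the HSP60 chamber, had 178 and 177 CPM in the vehicle libraries, 169 and 187 with LBP, 176, 186 and 177 after irradiation of vehicle cells and 139.8, 143 and 140.4 after irradiation of LBP cells. The first 3 groups shared 1 range, and the irradiated LBP libraries lay below it. With LBP in irradiated cells the difference was -0.35 ± 0.06 (95% interval -0.48 to -0.22, adjusted p = 0.0073), a ratio of 0.785, and the call held under all 14 settings, with adjusted p from 9.9e-06 to 0.047. HSPD1, which forms the chamber itself, had 999 and 1038 CPM in the vehicle libraries, 925 and 1007 with LBP, 936, 925 and 912 after irradiation of vehicle cells and 829, 862 and 771 after irradiation of LBP cells. Its irradiated groups did not overlap, and its difference was -0.17 ± 0.06 (adjusted p = 0.14). HSPA9, the third gene of this group, encodes the HSP70 of the matrix, and it was not called. HSPE1 lies at chr2:197499994-197503457 on the plus strand and is protein coding. It shares 281 exonic bases with HSPD1 on the opposite strand, and 27.2% of its 50-base windows occur in transcripts of other genes, 16% in the readthrough gene HSPE1-MOB4, which had 0 counts in every library. The strand setting of the counting is not given in the sources used here, so reads of HSPE1 and HSPD1 in the shared stretch cannot be told apart, and those of pseudogene copies are uncertain.

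**Figure D4:**
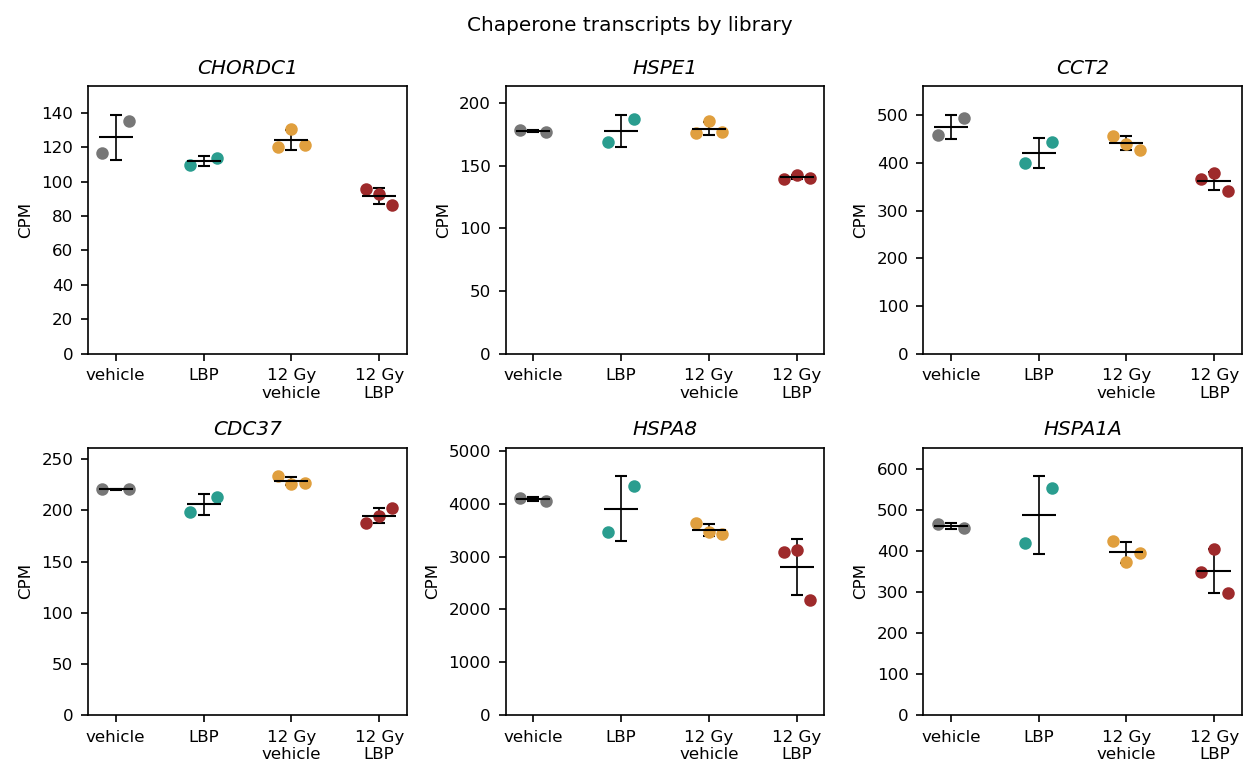
CPM of 6 members in every library, by group. Points are libraries, the long horizontal line is the group mean and the error bar is the SD (n = 2, 2, 3 and 3). For CHORDC1, HSPE1 and CCT2, and for HSPA8, which was not called, all 3 irradiated LBP libraries lie below all other libraries. For HSPA8 irradiated LBP replicate 3 lies apart at 2183 CPM.

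Within the CCT chaperonin, CCT2 fell and all 7 subunit genes had values below 0 (48.9% of all features), with a median of -0.17. CCT2, the beta subunit, had 458 and 494 CPM in the vehicle libraries, 399 and 443 with LBP, 457, 440.3 and 426 after irradiation of vehicle cells and 365, 378 and 341 after irradiation of LBP cells. Every irradiated LBP library lay below every other library. Between the irradiated groups the difference was -0.29 ± 0.07 (95% interval -0.43 to -0.14, adjusted p = 0.035). The call was lost under 9 of 14 settings. Without irradiated vehicle replicate 1, 2 or 3 the adjusted p was 0.13, 0.11 and 0.072, and without irradiated LBP replicate 1 or 3 it was 0.073 and 0.086, with values from -0.31 to -0.25. TCP1, the alpha subunit, had 497 and 560.1 CPM in the vehicle libraries, 453 and 495 with LBP, 503, 506 and 484 after irradiation of vehicle cells and 458, 464 and 407 after irradiation of LBP cells, which gave -0.17 ± 0.07 (adjusted p = 0.2). CCT8, the theta subunit, had 254 and 289 CPM in the vehicle libraries, 251 and 283 with LBP, 269, 268 and 233 after irradiation of vehicle cells and 228, 234 and 218 after irradiation of LBP cells, with irradiated groups that overlapped and a difference of -0.18 ± 0.08 (adjusted p = 0.21). CCT3, CCT4 and CCT5 had values from -0.17 to -0.14, and CCT7 had -0.06. Whether CCT2 and CCT7, the extremes of the family, differed in their response was not tested. Of the 7 subunits, 5 had irradiated LBP libraries all below the irradiated vehicle libraries, beside 13.6% of all features. TCP1 shares 397 exonic bases with ACAT2 and CCT5 shares 1757 with an antisense transcript, both on the opposite strand, where reads cannot be told apart without the strand setting. CCT2 lies at chr12:69585334-69601570 on the plus strand and is protein coding, and none of its 50-base windows occurs in another gene's transcripts.

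No HSP70 or HSP110 gene passed, although all 7 had values below 0 (48.9% of all features), with a median of -0.21. HSPA8 had 4118 and 4059.6 CPM in the vehicle libraries, 3472 and 4344 with LBP, 3630.0, 3459 and 3428 after irradiation of vehicle cells and 3082, 3132 and 2183 after irradiation of LBP cells. The 3 irradiated LBP libraries were the lowest of the study, with replicate 3 well below the other two. The difference was -0.32 ± 0.12 (adjusted p = 0.15), and without irradiated LBP replicate 3 it was -0.17 (adjusted p = 0.29). HSPA1A had 466 and 455 CPM in the vehicle libraries, 421 and 555 with LBP, 424, 373 and 395 after irradiation of vehicle cells and 349.9, 405 and 298 after irradiation of LBP cells. Its irradiated groups overlapped, and the difference was -0.18 ± 0.12 (adjusted p = 0.4), or -0.07 without irradiated LBP replicate 3. HSPA1B, which encodes nearly the same protein, had 413 and 394 CPM in the vehicle libraries, 381 and 500.0 with LBP, 373, 334 and 352 after irradiation of vehicle cells and 328, 386 and 286 after irradiation of LBP cells and a difference of -0.08 ± 0.11, which was 0.02 without irradiated LBP replicate 3 and -0.20 without replicate 2. HSPA1A shares 72.6% of its 50-base windows with HSPA1B, so the division of reads between this pair is uncertain. HSPH1 (HSP110), an exchange factor that empties HSP70, had 452 and 449 CPM in the vehicle libraries, 414 and 413 with LBP, 407, 409 and 388 after irradiation of vehicle cells and 376, 359 and 318 after irradiation of LBP cells. Its irradiated groups did not overlap, and the difference was -0.19 ± 0.07 (adjusted p = 0.13). HSPA4L had -0.26, HSPA4 and HSPA14 were not called, and the symbol HSPA14 stands for 2 genes in GENCODE v29.

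The HSP40 genes, whose proteins stimulate the HSP70 ATPase, did not pass with LBP in irradiated cells. DNAJB6, known for holding back protein aggregation, came closest, with 139 and 141 CPM in the vehicle libraries, 119.6 and 132 with LBP, 135, 129.9 and 136 after irradiation of vehicle cells and 119, 110.1 and 112 after irradiation of LBP cells. Its irradiated groups did not overlap, and the difference was -0.23 ± 0.06 (adjusted p = 0.052). DNAJA1 had 195 and 204 CPM in the vehicle libraries, 201 and 229 with LBP, 201, 181 and 172 after irradiation of vehicle cells and 185, 172 and 136 after irradiation of LBP cells, with a low value in irradiated LBP replicate 3 and a difference of -0.17 ± 0.10, which was -0.05 without that library. DNAJB1, a standard marker of heat shock, had 236 and 216 CPM in the vehicle libraries, 220.2 and 247 with LBP, 219.7, 205 and 210.3 after irradiation of vehicle cells and 225, 211 and 231 after irradiation of LBP cells. The irradiated groups overlapped, and the difference was 0.07 ± 0.07, the highest of the 36 members. DNAJB4 had 0.06, and all 6 HSP40 genes lay between -0.23 and 0.07.

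Small heat shock genes, BAG3 and the heat shock factors did not pass either. HSPB1, which binds unfolded protein without ATP, had 318 and 373 CPM in the vehicle libraries, 356 and 423 with LBP, 381, 355 and 419.7 after irradiation of vehicle cells and 304, 324 and 359 after irradiation of LBP cells, with overlapping groups and a difference of -0.23 ± 0.10 (adjusted p = 0.19). BAG3, the HSP70 exchange factor that directs clients to autophagy and a known target of HSF1, had 240.0 and 225 CPM in the vehicle libraries, 222 and 233 with LBP, 218, 185 and 213 after irradiation of vehicle cells and 207, 209.6 and 201 after irradiation of LBP cells, and its difference was 0.00 ± 0.07 (95% interval -0.15 to 0.15). HSPB8, the partner of BAG3, had CPM between 6.69 and 8.31 in all libraries. HSF1, the factor that drives the heat shock response, had 74.4 and 79.6 CPM in the vehicle libraries, 82.7 and 85.5 with LBP, 81.3, 77.2 and 82.8 after irradiation of vehicle cells and 78.2, 74.8 and 87.0 after irradiation of LBP cells, a difference of -0.01 ± 0.07 (95% interval -0.16 to 0.14). HSF2, its relative, had 11.8 and 15.1 CPM in the vehicle libraries, 10.04 and 10.3 with LBP, 13.2, 14.7 and 12.4 after irradiation of vehicle cells and 11.3, 10.05 and 12.5 after irradiation of LBP cells, a difference of -0.25 ± 0.12. Activation of HSF1 is by modification and assembly of the protein, which RNA levels do not measure.

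The comparison of irradiated with non-irradiated LBP cells (n = 3 against 2) called no member with edgeR, beside 0.142% of all features. DESeq2 called 3 members, all lower: HSPA1A, HSPA8 and HSPE1 (1.24% of all features), while limma on FPKM values called 0. The median log2 fold change was -0.17, with 33 of 36 values below 0, beside 0.0021 for all features. Features with a mean of at least 100 CPM also lay lower, with a median of -0.06 and 66.0% below 0. The members in that range had a median of -0.18. An unadjusted p under 0.05 was reached by 16 members, with no positive value among them (13.5% of all features), and 18 had all irradiated LBP libraries below both LBP libraries (14% of all features). The lowest values belonged to HSPA8, -0.48 ± 0.14 (adjusted p = 0.24), HSPA1A, -0.48 ± 0.13 (adjusted p = 0.24), HSPA1B, -0.40 ± 0.13, and DNAJA1, -0.39 ± 0.12. HSPE1 had -0.34 ± 0.06 (adjusted p = 0.086), DNAJB4 -0.31 ± 0.09 and CHORDC1 -0.29 ± 0.08. The HSP90 genes HSP90AA1 and HSP90AB1 had -0.26 and -0.13, HSPD1 -0.24, CCT8 -0.24 and CCT2 -0.22. Only HSPA4L, HSF2 and HSPB8 had values above 0. These sizes depend on the 2 LBP libraries, which differed from each other for HSPA8 (3472 and 4344 CPM) and HSPA1A (421 and 555 CPM). Without LBP replicate 1 the members' median was -0.25 and the value of HSPA8 was -0.63, and without LBP replicate 2 they were -0.10 and -0.31.

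Without LBP, what 12 Gy did within 3 h was read from irradiated vehicle against vehicle libraries (n = 3 against 2), and no member passed with edgeR (0.439% of all features did). DESeq2 also called 0 (0.872% of all features). An unadjusted p under 0.05 was reached by 3 of 36 members, HSPH1, HSP90AB1 and BAG3, a share not far from the 6.91% of all features. The median was -0.09, with 30 of 36 values below 0, beside 0.0019 for all features, and 17 members had all irradiated libraries below both vehicle libraries (13.9% of all features). Among features of at least 100 CPM the median was -0.02, with 58.5% below 0, and for the members among them it was -0.10. HSPA8 had the lowest value, -0.22 ± 0.14, followed by HSPA1A, -0.21 ± 0.13, HSP90AA1, -0.20 ± 0.10, and HSPA1B, -0.19 ± 0.13. BAG3 had -0.18 ± 0.08, DNAJB1 -0.09 ± 0.08 and HSPH1 -0.17 ± 0.07. The inducible genes HSPA1A, HSPA1B, DNAJB1 and BAG3, whose transcripts are known to rise on heat shock, had values below 0 at this time, like most members. None of them was called, the 95% intervals of HSPA1A, HSPA1B and DNAJB1 included 0, and the DNAJB1 groups overlapped. HSPB1 had the highest value, 0.16 ± 0.11, with overlapping groups. HSF1 had 0.06 ± 0.08, CHORDC1 -0.02 ± 0.08, HSPE1 0.01 ± 0.06 and CDC37 0.05 ± 0.06. The 7 CCT genes had values from -0.11 to -0.02.

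LBP was compared with vehicle in non-irradiated cells (n = 2 against 2), and edgeR called no member either (0.804% of all features). DESeq2 called 1 of 36, HSPA4L, a share close to the 2.53% of all features. An unadjusted p under 0.05 was reached by 3 of 36, HSPA4L, DNAJB4 and HSF2, a smaller share than the 13.5% of all features. These counts do not set the members apart from other features. HSPA4L, an HSP110-type exchange factor, had 17.6 and 17.6 CPM in the vehicle libraries, 13.1 and 11.9 with LBP, 17.5, 17.8 and 15.9 after irradiation of vehicle cells and 13.0, 15.5 and 14.2 after irradiation of LBP cells. Both LBP libraries lay below both vehicle libraries, and the difference was -0.49 ± 0.11 (adjusted p = 0.077). DNAJB4, an HSP40, had 12.2 and 11.0 CPM in the vehicle libraries, 14.8 and 14.4 with LBP, 11.0, 11.7 and 11.3 after irradiation of vehicle cells and 11.8, 11.5 and 12.1 after irradiation of LBP cells. Both LBP libraries lay above every other library, and the difference was 0.34 ± 0.10 (adjusted p = 0.17). HSF2 had a difference of -0.40 ± 0.14 (adjusted p = 0.25), from 11.8 and 15.1 to 10.04 and 10.3 CPM, and it was -0.58 without vehicle replicate 1 and -0.21 without vehicle replicate 2. These 3 genes are among the least abundant members. The median of all 36 was -0.07, and 12 had both LBP libraries below both vehicle libraries (22.3% of all features). The 4 genes that fell with LBP in irradiated cells had -0.17 ± 0.09 (CHORDC1), 0.00 ± 0.07 (HSPE1), -0.18 ± 0.08 (CCT2) and -0.10 ± 0.07 (CDC37) here. With groups of 2, the median was 0.02 without LBP replicate 1 and -0.14 without LBP replicate 2, so its direction rests on LBP replicate 1.

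Whether the LBP effect differed between irradiated and non-irradiated cells was tested as an interaction, the effect with radiation minus that without. No member passed with edgeR (0.0135% of all features) or DESeq2 (0.108% of all features). An unadjusted p under 0.05 was reached by 3 of 36 members, a share close to the 8.2% of all features. They were HSPE1, with -0.35 ± 0.09 (unadjusted p = 0.0024, adjusted p = 0.57), HSPB1, with -0.40 ± 0.15 (adjusted p = 0.6), and CHORDC1, with -0.27 ± 0.11 (adjusted p = 0.6). For HSPE1 the pattern is a level of 169 to 187 CPM in the 7 libraries of the other 3 groups and of 139.8 to 143 CPM in the irradiated LBP libraries. The other 2 called genes, CCT2 and CDC37, had -0.11 ± 0.11 and -0.13 ± 0.09. Without LBP replicate 1 they were -0.18 and -0.18, and without LBP replicate 2 they were -0.04 and -0.08. CHORDC1 had -0.16 without vehicle replicate 1 and -0.38 without vehicle replicate 2. The members' median of -0.09 was -0.16 without LBP replicate 1 and -0.01 without LBP replicate 2. Features of at least 100 CPM had a median of -0.03. The comparisons above share libraries, so their values are set side by side and not correlated.

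Genes that work with the members, from a list of 59 written with earlier results of these data known, were read in the same fit. Of these, 58 were in the table and 54 were tested. With LBP in irradiated cells 4 fell and 1 rose, 9.26% beside 4.36% of all features. In the other comparisons and the interaction edgeR called none. An unadjusted p under 0.05 was reached by 5 after irradiation of vehicle cells (6.91% of all features), 11 after irradiation of LBP cells (13.5%), 5 with LBP alone (13.5%) and 10 in the interaction (8.2%). PFDN4, a subunit of prefoldin, the complex that hands actin and tubulin to CCT, had 39.3, 46.7 and 49.2 CPM in irradiated vehicle and 29.7, 34.8 and 33.0 in irradiated LBP libraries. The difference was -0.47 ± 0.09 (adjusted p = 0.016). VBP1, another prefoldin subunit, had 75.03, 77.4 and 80.8 and then 66.2, 67.2 and 61.5 CPM, a difference of -0.26 ± 0.06 (adjusted p = 0.037). TXNDC9, a thioredoxin-like cofactor of CCT, had 54.6, 57.7 and 65.1 and then 43.5, 46.3 and 40.8 CPM, a difference of -0.44 ± 0.08 (adjusted p = 0.014). In all 3 genes, every irradiated LBP library lay below every irradiated vehicle library. BAG2, which acts on HSP70 and restrains its ubiquitin ligase partner, had 37.6, 37.9 and 40.0 and then 28.4, 30.7 and 28.0 CPM, a difference of -0.41 ± 0.07 (adjusted p = 0.007). LONP1, a protease of the mitochondrial matrix, rose from 77.5, 76.0 and 86.4 to 99.6, 98.6 and 113 CPM, a difference of 0.38 ± 0.08 (adjusted p = 0.025).

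PFDN1 had -0.16 ± 0.07, and it and the other prefoldin subunit genes PFDN2, PFDN5 and PFDN6 did not pass. CCT6A, the subunit missing from the member list, had -0.23 ± 0.08 (adjusted p = 0.11). Without radiation PFDN4 had 0.00 ± 0.11, VBP1 0.09 ± 0.08 and TXNDC9 0.12 ± 0.10 with LBP, and none of the 3 passed. BAG2 had -0.19 ± 0.08 (adjusted p = 0.34) there. LONP1 had 0.36 ± 0.10 (adjusted p = 0.14), near its 0.38 ± 0.08 with radiation, and its interaction was 0.02 ± 0.13. HSPA6, an HSP70 gene that is nearly silent until heat shock, was between 0.29 and 0.82 CPM in all libraries. DNAJA4, TRAP1 and SERPINH1, the last a chaperone of collagen regulated by HSF1, had values of -0.06, 0.03 and 0.01. The median of the 54 was -0.07 with LBP in irradiated cells, beside -0.17 for the members. Some of these calls were lost when a library was left out. VBP1 was at adjusted p from 0.071 to 0.12 without irradiated vehicle replicate 1, 2 or 3 or irradiated LBP replicate 1 or 3. LONP1 was at 0.099, 0.11 and 0.067 without irradiated vehicle replicate 1 or 2 or irradiated LBP replicate 3. PFDN4 was at 0.077 and 0.069 without irradiated vehicle replicate 2 or 3, and TXNDC9 at 0.057 without irradiated vehicle replicate 3.

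**Figure D5:**
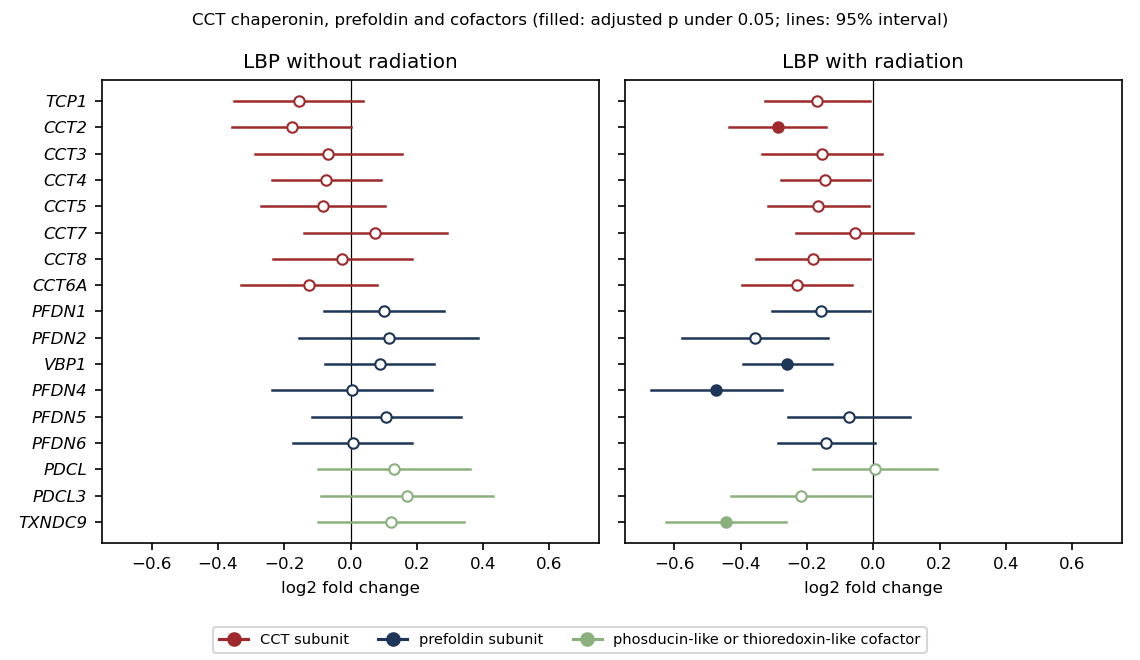
Log2 fold changes with LBP for the CCT subunits (red), prefoldin subunits (blue) and cofactors of CCT (green), without radiation on the left and with radiation on the right, on 1 scale. Circles are fitted values, lines 95% intervals, and filled circles have an adjusted p under 0.05. With radiation CCT2, VBP1, PFDN4 and TXNDC9 are filled, and PDCL is the 1 gene shown with a value above 0.

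The promoter matches described above can be set beside these values. With LBP in irradiated cells, the 7 members with a match of 3 units had a median of -0.17 and the 26 members with an entry and no such match had -0.17 too. After irradiation of LBP cells the medians were -0.26 and -0.17, after irradiation of vehicle cells -0.14 and -0.09, and with LBP alone -0.08 and -0.06. Of the 4 genes that fell, CHORDC1 had matches of 3 units, CCT2 had 1 match of 2 units, and HSPE1 and CDC37 had none in their windows. These are descriptions of windows that were searched with letters alone, and no test was made of them.

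Total counts ran from 31830506 to 62986831 per library, and libraries of the same group varied with a common coefficient of variation of 11.5% in the fit. All 12 keratinocyte markers examined, such as KRT5 and KRT14, had means over 1 CPM, with summed levels of 13029 to 16904 CPM, higher in the LBP libraries (16545 and 16904) than in the vehicle libraries (13498 and 14227). The labels give the tissue as mucosa. Of 9 genes of simple or mucosal epithelium, 6 were above 1 CPM, among them KRT8, KRT18 and KRT13, with summed levels of 8164 and 8510.0 CPM in vehicle, 7347 and 8453 in LBP, 7459 to 8408 in irradiated vehicle and 6530 to 7368 in irradiated LBP libraries. Their part in the chaperone results was not tested. Fibroblast markers summed to 5.06 to 7.30 CPM, mostly from COL1A1 at 3.77 to 5.74 CPM. COL3A1 had 0.646 to 1.84 CPM, and DCN was at 0 in every library. Melanocyte markers summed to 6.66 to 9.59 CPM, mostly from MITF at 5.40 to 8.80 CPM, with TYR at 0 in every library. Endothelial markers summed to 1.66 to 3.61 CPM, with CDH5 at 1.05 to 2.75 CPM and PECAM1 at 0 in every library. The part of COL1A1, COL3A1, MITF and CDH5 was not tested. The macrophage gene CD68, also made by other cells, was the 1 leukocyte marker above 1 CPM, at 11.4 to 19.1 CPM, and its part was not tested.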

How the data were processed

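RNA-seq of 10 HaCaT libraries was read from 2 deposited tables, gene-level counts and FPKM values, both made by the authors. HISAT2 and GRCh38 are named in the submitters' processing notes. The annotation, the counting tool and its strand setting: not given in the sources used here. Counts were analysed in R 4.3.3 with edgeR 4.0.16: features were kept by filterByExpr (minimum count 10), scaled by TMM and fitted together over all 4 groups with the quasi-likelihood test, and p-values were adjusted by Benjamini-Hochberg over all 14799 features tested. DESeq2 1.42.0 and limma 3.58.1 (on log2(FPKM + 1)) were alternatives. FPKM served for levels between genes. The members and all lists were chosen with earlier results of these data known. Values in every library are given for a core list of 18 members, of which HSPB8 and CRYAB have ranges only. Any other called member also has such values, as does the member with the largest fold change of its role where its groups did not overlap. Partner genes have values where called, and for at most 6 others. The range of at least 100 CPM and the alternatives for partner genes were chosen after seeing the data. Promoters came from RefSeq and gene positions from GENCODE v29. Total counts of 31830506 or more per library make 3 counts equal to 0.0924 CPM or less. Replicate numbers were not used as pairs.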

Additional observations from a re-analysis of the deposited data

How the results depend on the processing

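The count of members called with LBP in irradiated cells was 4. It was 6 with DESeq2, 2 when only the 2 groups compared were fitted, 2 with limma on log2(FPKM + 1), 2 with limma on log2(FPKM + 0.1), 2 with limma without the filter on low values, and from 2 to 3 when each replicate was left out. In the other comparisons 0 members were called, except with DESeq2, which called 3 after irradiation of LBP cells and 1 with LBP without radiation. No call reversed its direction under any alternative run. With the replicate number as a block, 4 members were called with LBP in irradiated cells and 0 in each other comparison, and the block changed no call of a member. The numbers were not taken to pair the samples: the deviations of same-numbered libraries from their group means had correlations across genes from -0.16 to 0.11, and genes are not independent replicates. Of the 5 partner genes called, the call was lost in 1 of 14 settings for BAG2, 8 for VBP1, 3 for PFDN4, 2 for TXNDC9 and 6 for LONP1. The cause of these changes was not tested. The interaction with only 2 groups was not run, since it needs all 4. Groups of 2 and 3 libraries limit precision more than depth does for these abundant genes, and CRYAB is near the limit of detection.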
